A study of Mus musculus with 20 samples.

Results

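The 67 genes described here are the clustered, replication-dependent histone genes of the mouse. They were taken from the 21883 protein-coding genes of the RefSeq annotation of GRCm38.p6 as those named Hist1h, Hist2h, Hist3h or Hist4h, in the current or a former symbol. Of the 67, 63 carry a current cluster symbol (H1f1 to H1f6, or H2ac, H2bc, H3c or H4c with a number) and 4 were found by the former symbol alone: H4f16 (Hist4h4), H2bu2 (Hist3h2ba), H2aw (Hist3h2a) and H4bc24 (Hist1h2br). They comprise 18 genes for H2A, 18 for H2B, 12 for H3, 13 for H4 and 6 for the linker histone H1. With a split where neighbouring members lay over 100 kb apart, they form 7 clusters, of which 4 are on chromosome 13 (18, 5, 29 and 2 genes in order along it) and the others on chromosome 3 (10 genes), chromosome 11 (2 genes) and chromosome 6 (1 gene).

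H3K27ac, the acetylation of lysine 27 of histone H3 that marks active promoters and enhancers, was mapped by ChIP-seq in RAW264.7 cells, an established mouse macrophage line (labelled as derived from monocytes, with bone marrow as its source) that can be driven towards osteoclasts by the cytokine RANKL. The deposited data are 10 lists of broad peaks: 3 from untreated cells, 3 from cells given RANKL (50 ng/ml), 3 from cells given RANKL with I-BET (500 nM), and 1 from cells given I-BET alone. I-BET is an inhibitor of the bromodomains with which BET proteins bind acetylated histones. All treatments lasted 4 h, no time is given for the untreated cells, and the 10 input libraries were not analysed here. All groups are the same line with no transgene named in the labels. The labels say nothing of separate cultures, so p-values rest on sample spread that may be technical only.

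Replication-dependent histone genes are short, mostly lack introns, and give mRNAs that end in a stem-loop in place of a poly(A) tail. Their transcription peaks in S phase, when new DNA has to be packaged, and takes place in nuclear histone locus bodies that hold the coactivator NPAT. H2A, H2B, H3 and H4 form the nucleosome core, whereas H1 binds the linker DNA. Some members, among them H1f6 (H1t), H2ac1 and H2bc1, are known as testis histones.

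Members were short, with a median gene length of 492 bp against 17170 bp over all protein-coding genes, and 61 of 67 were under 1 kb. The remaining 6 have annotated models over 2 kb, up to 37455 bp for H2bc6, so that their far end lies away from the histone coding unit. For each gene and list, the length covered by peaks within 1 kb of either gene end was measured, and a gene with any covered base is said to have a gene-end peak. Since a short gene and both flanks form a single window of about 2.5 kb, the covered length stands for the whole gene. The lists hold no read counts, so the depth behind each value is unknown. In bulk samples, fewer cells with the mark and less mark per cell cannot be told apart.

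The promoters of 62 members were found in the RefSeq promoter table (GRCm38.p6), with 63 starts in all. The sequences of 7 of them are printed because the results turn on these genes, each as the 250 bases before the start, 5′ to 3′ on the gene's strand. Capitals mark 6 motifs searched on both strands, with overlaps allowed. The TATA box was searched as TATAAA, the known binding site of the factor NF-Y as CCAAT, and the octamer bound by POU factors as ATTTGCAT. The H1 box of linker histone genes was searched as AAACACA, the element typical of H4 genes as GGTCCG, and the E2F motif as TTTCGCGC. H2aw (chr11:58954435-58954684, plus strand) had more covered length in every RANKL list than in any untreated list. H2ac20 (chr3:96220881-96221130, minus strand) had a gene-end peak in every list, although the stretch printed was bare in untreated replicate 1 and RANKL+I-BET replicate 2. H2bc7 (chr13:23574208-23574457, minus strand) shares its upstream region with the divergent gene H2ac7. H1f1 (chr13:23763418-23763667, plus strand) and H4c4 (chr13:23581318-23581567, plus strand) had RANKL values above those of every other list. H1f6 (chr13:23695561-23695810, plus strand) and H4c3 (chr13:23698459-23698708, minus strand) lie side by side and had a gene-end peak in 1 and 5 of the 10 lists.

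H2aw: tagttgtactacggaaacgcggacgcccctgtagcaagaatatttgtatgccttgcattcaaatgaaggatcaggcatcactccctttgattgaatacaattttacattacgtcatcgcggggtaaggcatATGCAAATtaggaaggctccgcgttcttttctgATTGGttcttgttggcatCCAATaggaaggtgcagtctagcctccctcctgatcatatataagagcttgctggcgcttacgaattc
H2ac20: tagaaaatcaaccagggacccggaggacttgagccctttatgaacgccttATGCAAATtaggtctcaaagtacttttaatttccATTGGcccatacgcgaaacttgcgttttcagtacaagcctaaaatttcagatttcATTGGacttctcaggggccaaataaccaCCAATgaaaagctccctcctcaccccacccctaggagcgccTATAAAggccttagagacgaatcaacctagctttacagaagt
H2bc7: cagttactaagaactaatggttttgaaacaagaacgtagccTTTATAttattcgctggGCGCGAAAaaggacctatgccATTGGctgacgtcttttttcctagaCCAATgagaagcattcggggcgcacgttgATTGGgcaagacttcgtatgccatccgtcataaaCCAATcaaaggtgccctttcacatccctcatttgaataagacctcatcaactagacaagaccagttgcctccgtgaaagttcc
H1f1: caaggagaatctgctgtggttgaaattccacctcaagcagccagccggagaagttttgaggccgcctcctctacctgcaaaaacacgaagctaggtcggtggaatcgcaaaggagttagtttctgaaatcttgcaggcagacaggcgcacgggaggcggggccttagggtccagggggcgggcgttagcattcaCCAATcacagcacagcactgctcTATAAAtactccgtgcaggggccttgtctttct
H4c4: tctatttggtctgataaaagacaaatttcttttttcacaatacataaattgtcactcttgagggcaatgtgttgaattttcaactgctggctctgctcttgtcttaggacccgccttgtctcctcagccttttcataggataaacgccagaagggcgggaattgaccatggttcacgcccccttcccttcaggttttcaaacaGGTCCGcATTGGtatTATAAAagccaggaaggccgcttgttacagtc
H1f6: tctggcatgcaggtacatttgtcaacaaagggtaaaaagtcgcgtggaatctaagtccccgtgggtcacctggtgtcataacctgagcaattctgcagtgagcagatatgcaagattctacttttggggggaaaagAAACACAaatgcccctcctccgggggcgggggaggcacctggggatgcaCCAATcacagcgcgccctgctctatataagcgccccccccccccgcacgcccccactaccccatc
H4c3: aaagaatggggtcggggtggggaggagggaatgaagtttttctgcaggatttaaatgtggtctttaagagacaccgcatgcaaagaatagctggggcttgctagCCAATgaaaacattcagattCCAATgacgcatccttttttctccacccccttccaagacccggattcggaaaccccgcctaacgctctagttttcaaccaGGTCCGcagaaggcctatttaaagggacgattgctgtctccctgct

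CCAAT was in 82.5% of the 63 member promoters and in 35.2% of the 21199 other protein-coding promoters, searched over the same 250 bases. All 18 H2A and all 17 H2B promoters held it, and 94.4% and 100% of them held it at least 2 times, as in H2ac20 and H2bc7. The octamer was in 38.9% of H2A and 41.2% of H2B promoters against 1.51% of the other promoters, and the H2aw copy is read on the minus strand. The H1 box was in 5 of 6 H1 promoters (83.3%, against 5.43% of the others), H1f6 included and H1f1 excepted. The H4 element was in 9 of 12 H4 promoters (75.0%, against 8.39% of the others), H4c3 and H4c4 included, whereas CCAAT was in only 3 of these 12. TATAAA was in 46.0% of member promoters against 11.5% of the others, and TTTCGCGC in 11.1% against 0.330%. The stretches searched for divergent H2A and H2B genes can overlap, so a single copy can be counted for both genes. This was so for the octamer of H2ac8 and H2bc8 and the TTTCGCGC of H2ac22 and H2bc22. These are matches of letters in a window and do not show that a factor was bound. H1f6, with no peak in 9 lists, and H1f2, with a peak in all 10, both held the H1 box and CCAAT.

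A 50-base read cannot always be assigned to 1 member. Of the 63 promoters of 300 bases (250 before and 50 after the start), 51 shared no stretch of 50 bases with another promoter. The other 12 did: H2bc23 and H4bc24 shared all 251 such stretches, and H2ac23, H2ac24, H4c17, H4c18, H3c14, H3c15, H2ac18, H2ac19, H4c11 and H4c12 shared between 29 and 236. The values of these 12 genes are uncertain as to which copy carried the mark. Only the 300 bases were compared. The rest of each gene and its flanks was not checked, nor were the 5 members without a promoter entry (H2bc21, H2bc4, H3c1, H3c7 and H4c14). The values of other members may therefore be uncertain in the same way.

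In the lists as deposited, a gene-end peak was present at most histone genes in each list except RANKL+I-BET replicate 2. In the untreated lists 57, 52 and 62 of the 67 members had one (57.0 ± 5.0, SD, n = 3), against 32.4%, 27.03% and 37.7% of all protein-coding genes. With RANKL the numbers were 63, 67 and 62 (64.0 ± 2.65, SD, n = 3), against 41.5%, 73.9% and 41.7% of all genes. With RANKL and I-BET they were 65, 22 and 63 (50.0 ± 24.3, SD, n = 3), against 41.6%, 17.3% and 36.7%, and with I-BET alone 63, against 34.8%. Replicate 2 of RANKL and replicate 2 of RANKL with I-BET were the highest and the lowest list, for members and for all genes alike. These numbers depend on the peak threshold. With only peaks of a -log10 q of at least 5, the mean share of members with a peak was 6.47% in untreated cells, 43.8% with RANKL and 11.9% with RANKL and I-BET, against 3.22%, 19.2% and 7.86% of all genes. With all lists reduced to one covered length (3.44 Mb, that of the shortest list), it was 28.9%, 10.9% and 15.9%, against 9.01%, 4.98% and 10.3%, so that untreated cells were then the highest group.

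**Figure D1:**
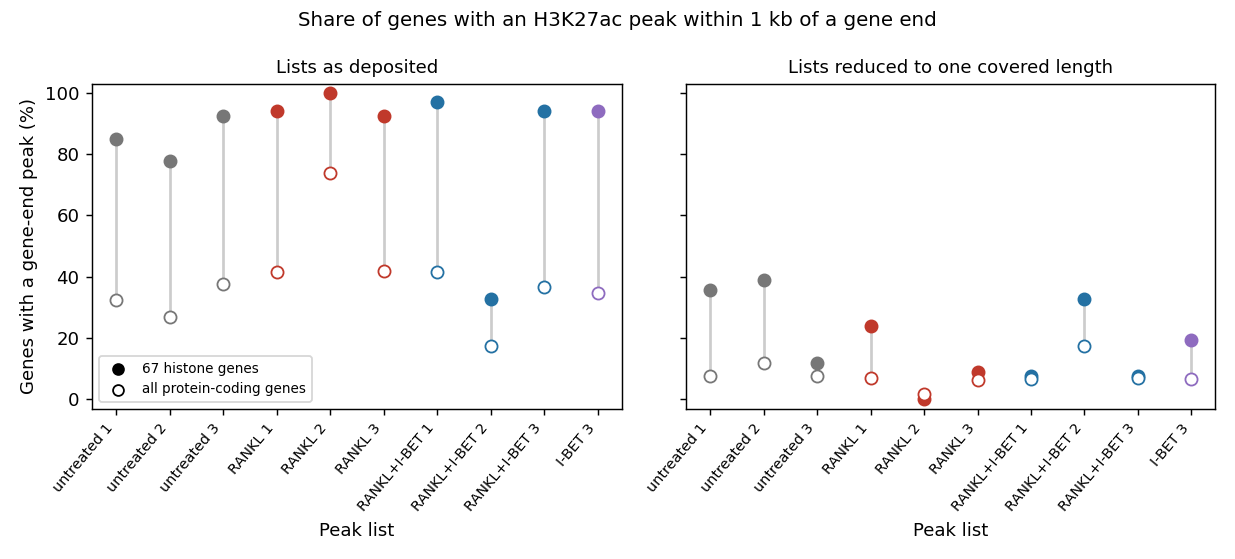
Share of the 67 histone genes (filled) and of all protein-coding genes (open) with a gene-end peak, in percent, for each of the 10 lists as deposited (left) and reduced to one covered length of 3.44 Mb (right). The histone share is above the share of all genes in every deposited list, and in the reduced lists it runs from 0% in RANKL replicate 2 to 38.8% in untreated replicate 2.

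The lists numbered 2 stood apart in size and must be read with that in view. RANKL replicate 2 held 141905 peaks over 185 Mb and RANKL+I-BET replicate 2 held 6041 over 3.44 Mb, while the 7 lists not numbered 2 held 13368 to 17794 peaks over 16.1 to 25.9 Mb. Untreated replicate 2 was also short, with 9893 peaks over 7.79 Mb. At 10 macrophage markers, among them Spi1 and Csf1r, between 9 and 10 genes had a peak in the lists not numbered 2, 8 in untreated replicate 2, 9 in RANKL replicate 2 and 7 in RANKL+I-BET replicate 2. At 7 fibroblast and osteoblast markers and 7 markers of absent tissues the summed covered length was 0 kb in 9 lists and 7.46 and 5.19 kb in RANKL replicate 2. At 8 lymphocyte markers it was 11.6 kb there and 0 to 1.60 kb elsewhere, with Cd3e, Cd4, Cd8a, Ms4a1 and Pax5 at 0 in the 9 other lists. The part of these signals in the histone values of RANKL replicate 2 was not tested, and results are given with and without the lists numbered 2. Without them the mean number of members with a peak was 59.5 in untreated cells, 62.5 with RANKL and 64.0 with RANKL and I-BET (n = 2 each).

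A peak was present in all 10 lists at 19 of the 67 members, and 57 had one in all 7 lists not numbered 2. A further 33 had a peak in 9 lists, of which 30 lacked it only in RANKL+I-BET replicate 2, the shortest list, from which 45 members were absent. Of the 19, the widest coverage belonged to H3c14 (median over the 10 lists 2628 bp), H2ac18 (2556 bp), H2ac23 (2552 bp), H3c15 (2547 bp), H2ac20 (2468 bp) and H2ac24 (2452 bp), which encode H3 and H2A. Only H2ac20 of these 6 has a promoter without a shared 50-base stretch. H2ac20 (chr3:96220413-96220880) was covered over 1880, 2346 and 2468 bp in untreated cells, 2468 bp in each RANKL list, 2468, 1138 and 2468 bp with RANKL and I-BET and 2468 bp with I-BET alone. That is its whole window in 7 of 10 lists, and it was shorter in untreated replicates 1 and 2 and in RANKL+I-BET replicate 2.

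**Figure D2:**
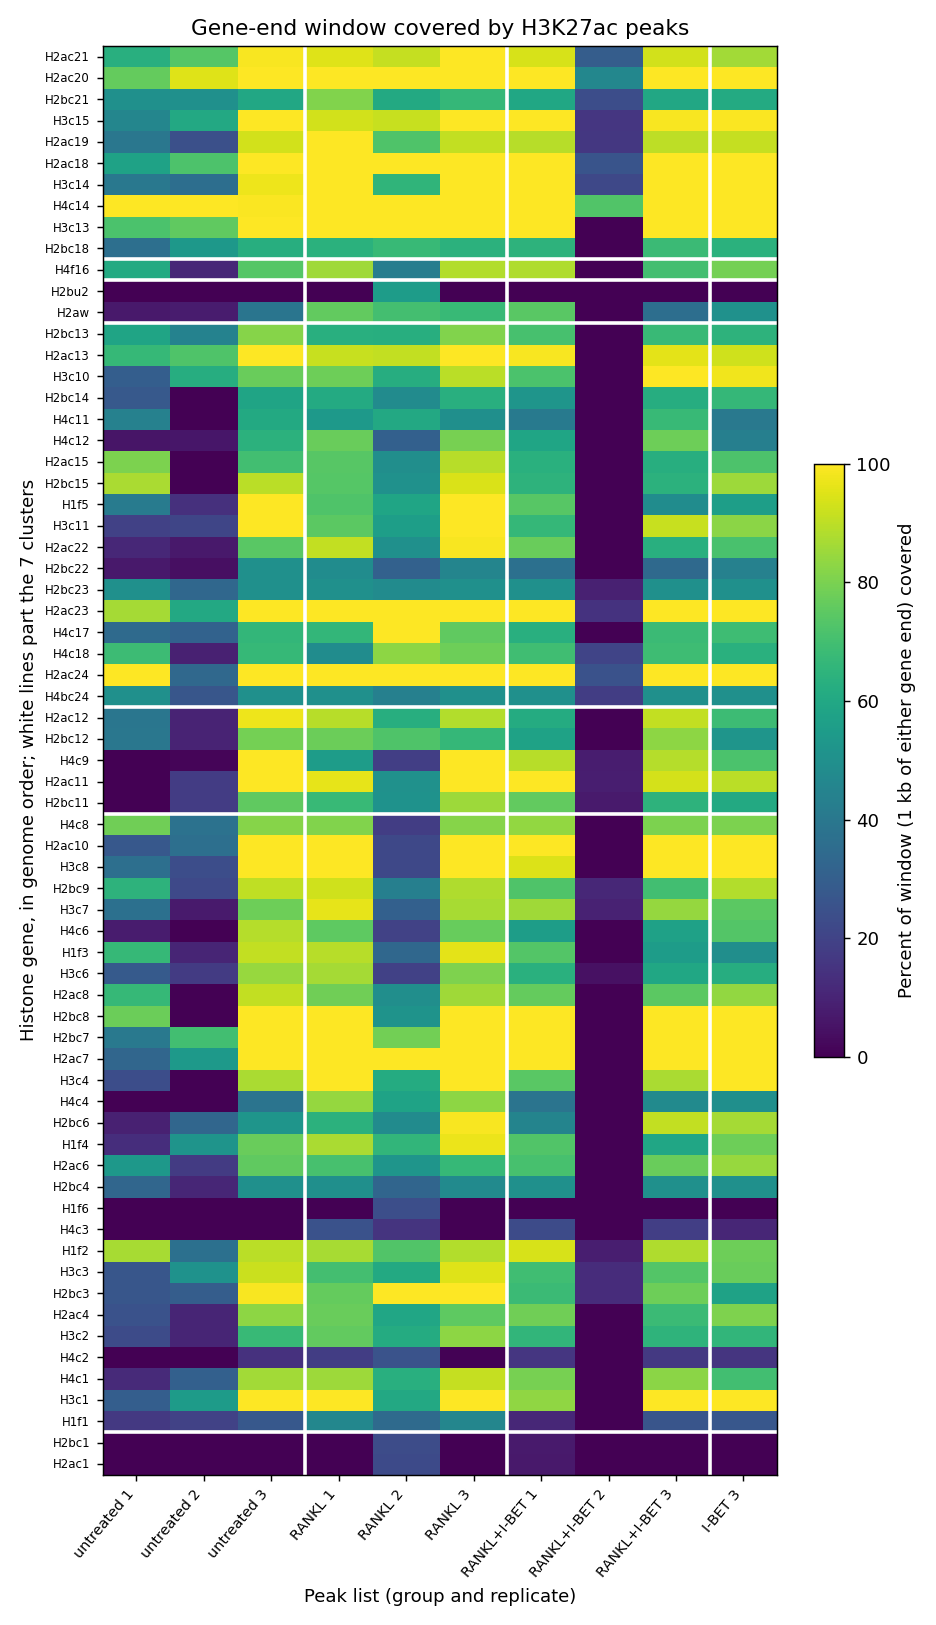
Percent of each member's window (within 1 kb of either gene end) covered by H3K27ac peaks, for 67 histone genes in genome order (rows, white lines between the 7 clusters) and 10 lists (columns). Most rows are well covered in the lists not numbered 2, RANKL+I-BET replicate 2 is at 0 for 45 members, and H2bu2 and H1f6 are at 0 in every list except RANKL replicate 2.

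The chromosome 3 cluster (chr3:96219885-96270192, 10 genes of H2A, H2B, H3 and H4, no other protein-coding gene) had the highest median coverage of the clusters with more than 2 genes in each of the 10 lists. The median share of the window under peaks was 53.9%, 66.1% and 99.3% in untreated cells, 100%, 91.4% and 100% with RANKL, 100%, 22.7% and 99.5% with RANKL and I-BET and 99.6% with I-BET alone. In RANKL+I-BET replicate 2 it kept a peak at 8 of its 10 genes, against 14 of the other 57 members. H4c14 (Hist2h4, chr3:96262934-96263317, an H4 gene) was covered over 2384, 2384 and 2371 bp in untreated cells, 2384 bp in each RANKL list, 2384, 1736 and 2384 bp with RANKL and I-BET and 2377 bp with I-BET alone. Its window is 2384 bp, so it was covered whole in 7 lists and nearly so in 2 others, and the groups overlapped. H2bc21 (Hist2h2be, chr3:96221072-96223738, an H2B gene that is also known to give a polyadenylated mRNA) was covered over 2004, 2001 and 2392 bp in untreated cells, 3250, 2436 and 2665 bp with RANKL, 2386, 944 and 2403 bp with RANKL and I-BET and 2443 bp with I-BET alone. Every RANKL value was above every untreated and every RANKL+I-BET value, although RANKL replicate 2 was only just above untreated replicate 3.

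The clusters of chromosome 13 were covered less and varied more. In the first, with 18 genes, the median share of the window was 47.0%, 17.5% and 72.0% in untreated cells and 73.2%, 57.5% and 85.2% with RANKL. In the second, with 5 genes, it was 0%, 10.04% and 97.3% and then 77.5%, 50.9% and 88.5%. In the third, with 29 genes, it was 27.7%, 17.5% and 86.0% and then 84.3%, 49.5% and 88.0%. Untreated replicate 3 lay inside or above the range of the RANKL lists in all 3 clusters, while untreated replicates 1 and 2 lay below it. With RANKL and I-BET these medians were 65.7%, 0% and 67.4% for the first, 75.8%, 7.31% and 88.7% for the second and 72.7%, 0% and 74.9% for the third.

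Peaks at the histone genes were broad in the lists not numbered 2. Excluding untreated replicate 1, their median width was 2352 to 3156 bp, against 1014 to 1167 bp for all peaks of the same lists, and 1 peak lay over up to 5 members. In untreated replicate 1 the median was 908 bp against 676 bp. The authors' fold enrichment of member peaks was moderate: their median percentile among genes with a peak in the same list was between 39.8 and 67.4 in the lists not numbered 2. In untreated replicate 2 and RANKL+I-BET replicate 2 member peaks were narrower, with medians of 559 against 583 bp and 317 against 439 bp. In RANKL replicate 2 they were wider, with a median of 1363 against 806 bp. The members thus stood out by how many had a peak and, in the lists not numbered 2 and RANKL replicate 2, by a width above that of all peaks. All peaks include those away from gene ends. Among the top 10% by fold were 9 of 57 members with a peak in untreated replicate 1, 7 of 63 in RANKL replicate 1 and in the I-BET list, and fewer elsewhere.

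Coverage was centred on the start sites. Over the 61 members with 1 annotated start, the start itself was under a peak at 36.1%, 13.1% and 86.9% of starts in the untreated lists, 91.8%, 83.6% and 90.2% with RANKL, 86.9%, 1.64% and 82.0% with RANKL and I-BET and 83.6% with I-BET alone. Over the 14669 other genes with 1 start, the shares were 15.1%, 12.3% and 26.6%, then 30.4%, 61.8% and 33.0%, then 29.9%, 5.78% and 27.1%, and 23.7%. Members were above other genes in every list but RANKL+I-BET replicate 2. In untreated replicates 1 and 2 the members' profile had a dip at the start. In replicate 1 a peak covered 60.7% of positions 500 bp upstream, 36.1% of starts and 47.5% of positions 500 bp downstream, and in replicate 2 these shares were 37.7%, 13.1% and 45.9%.

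**Figure D3:**
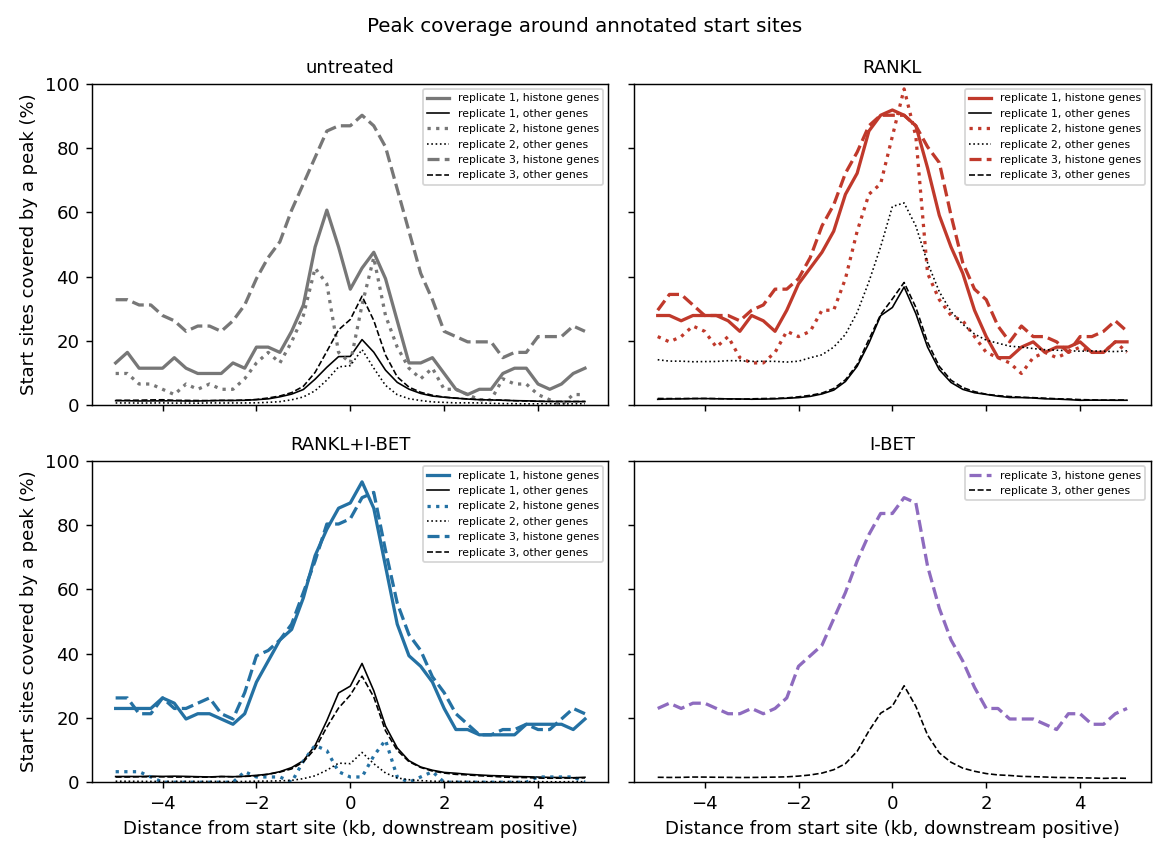
Percent of annotated start sites covered by a peak against the distance from the start in kb, for 61 histone genes (coloured) and 14669 other genes (black), by group, with replicates as solid, dotted and dashed lines. Member curves reach 82.0% to 91.8% at the start in the lists not numbered 2 other than untreated replicate 1, which dips to 36.1% there, as untreated replicate 2 does to 13.1%.

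Starts with a separate peak on either side made up part of this dip. Among member starts covered 500 bp to both sides, the start itself was bare at 7 of 22 in untreated replicate 1 (31.8%), 10 of 15 in untreated replicate 2 (66.7%) and 1 of 1 in RANKL+I-BET replicate 2. It was bare at 0 of 36 to 51 such starts in each of the other 7 lists. For other genes the shares were 16.5%, 16.6% and 23.6% in the same 3 lists and at most 1.15% in the others. These 3 lists are also those with the shortest median peaks (439 to 676 bp, against 806 to 1167 bp), and untreated replicate 3, with a median peak of 1093 bp, showed no dip. The part of peak width in the dip was not tested.

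Divergent pairs were searched among the 62 members with a promoter entry, so any pair with H2bc21 or H2bc4 is not counted. The genes of 10 such pairs, each of an H2A and an H2B gene, start 164 to 281 bp apart on opposite strands. In 9 of them a single peak lay over both starts in 7 or 8 of the 10 lists, H2bc7 with H2ac7 among them (174 bp apart, 8 lists). The exception was H2bc1 with H2ac1 (chr13:23933725-23934913), the testis pair at 281 bp, which had no such peak in any list. The members of a pair therefore share most of their covered length and do not count as separate observations.

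By family, H4 genes were covered less than H2A and H3 genes in each list other than RANKL+I-BET replicate 2, where all families had a median of 0. In untreated cells the median share of the window was 12.02%, 6.10% and 66.96% for H4, against 46.5%, 21.1% and 98.2% for H2A and 29.9%, 29.9% and 94.7% for H3. With RANKL it was 75.4%, 42.4% and 79.5% for H4, 93.3%, 66.5% and 99.5% for H2A and 94.7%, 61.2% and 100% for H3. In all 3 families untreated replicate 3 was nearer to the RANKL lists than to untreated replicates 1 and 2. H2B, with 6 long gene models that widen the window, was at 38.0%, 20.04% and 61.3% and then 64.2%, 50.7% and 66.6%. H1 was at 29.0%, 16.8% and 83.5% and then 79.8%, 46.6% and 92.1%. With I-BET alone the medians were 69.0% for H4, 87.8% for H2A, 98.6% for H3, 60.9% for H2B and 52.8% for H1.

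Several members stood apart from their neighbours by having little or no covered length. H1f6 (chr13:23695811-23696545) and H2bu2 (Hist3h2ba, chr11:58948911-58949372) had a peak only in RANKL replicate 2, over 662 and 1363 bp. The testis pair H2bc1 and H2ac1 had 561 bp there, 173 bp in RANKL+I-BET replicate 1 and 0 in the other 8 lists. H4c2 (chr13:23756937-23757386) had 0, 0 and 348 bp in untreated cells, 448, 629 and 14 bp with RANKL, 389, 0 and 403 bp with RANKL and I-BET and 376 bp with I-BET alone. H4c3 (chr13:23698084-23698458), next to H1f6, had 0 bp in all 3 untreated lists, 600, 359 and 0 bp with RANKL, 542, 0 and 438 bp with RANKL and I-BET and 254 bp with I-BET alone. No H4c3 value exceeded 600 bp, although it lies inside a cluster where other H4 genes such as H4c1 and H4c8 reached 2242 and 2042 bp.

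Setting RANKL beside untreated cells asks which histone genes gain or lose the mark in the first hours of the osteoclast stimulus. No member had a peak in all 3 lists of one group and in 0 of 3 of the other: 0 of 67 were gained and 0 lost, against 1.49% and 0% of all genes. Most members already had a peak in every untreated list, so differences could show mainly as covered length. As deposited, the median member was covered over 909, 508 and 2147 bp in untreated cells and 2003, 1506 and 2261 bp with RANKL. RANKL replicate 1 covered more than untreated replicate 1 at 56 of 63 members (88.9%, against 83.0% of all covered genes), and replicate 2, with its very long list, at 62 of 67 (92.5%, against 98.6%). Replicate 3 covered more at 27 of 62 (43.5%, against 70.8%), less at 16 (25.8%, against 25.5%) and the same at 19. Untreated replicate 3 was thus close to the RANKL lists. It covered the whole window at 17 of 67 members (25.4%, against 0.123% of all genes), where no list could have more, and untreated replicates 1 and 2 did so at 2 and 1 members.

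Counted over the lists not numbered 2, 17 of 63 members (27%) had more covered length in both RANKL lists than in either untreated list, against 38.3% of all genes covered, and 0 had less, against 1.91%. Over all 3 lists, 6 of 67 (8.96%) had more in every RANKL list, against 19.9% of all genes: H2bc21, H2bc18, H2aw, H4c17, H4c4 and H1f1. None had less in every list, against 0.00614%. The members' shares with more were below the background in both counts, but the ceiling at the window, which few other genes reached, can lower the members' shares, so nothing is read from this. With only peaks of a -log10 q of at least 5, 4 of 67 members (5.97%) were gained, H2ac21, H2ac20, H2bc21 and H2bc14, against 1.58% of all genes. H2ac21, H2ac20 and H2bc21 are neighbours with the same peak fold in every list, so they do not count as separate observations. With all lists at one covered length, H3c15 and H2ac19 were lost, 2 of 67 (2.99%), against 0.302%. They too are neighbours, with the same peak fold in every list but untreated replicate 1, so the excess over all genes is not read as a result. A comparison of 3 with 3 samples allows no two-sided exact permutation p under 0.1 for a single gene.

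H2aw (Hist3h2a, chr11:58954685-58955192), the H2A gene of the small chromosome 11 cluster, was covered over 172, 189 and 975 bp in untreated cells, 1909, 1760 and 1693 bp with RANKL, 1863, 0 and 902 bp with RANKL and I-BET and 1269 bp with I-BET alone. The RANKL values lay above all untreated values, whereas the RANKL+I-BET values spread over both. The authors' fold for its peak was 2.67, 2.32 and 2.29 in the untreated lists and 5.97, 2.498 and 4.96 in the RANKL lists. It was 3.64 and 2.56 in RANKL+I-BET replicates 1 and 3 and 2.41 in the I-BET list. The fold level also differs between lists. Its median over all genes with a peak was 2.66, 2.47 and 2.43 in the untreated lists and 3.18, 2.16 and 2.60 in the RANKL lists. In the lists reduced to one covered length it kept a peak only in RANKL replicates 1 and 3.

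H1f1 (Hist1h1a, chr13:23763668-23764412), an H1 gene at the end of its cluster, was covered over 452, 542 and 756 bp in untreated cells, 1266, 945 and 1263 bp with RANKL, 308, 0 and 724 bp with RANKL and I-BET and 744 bp with I-BET alone. Over the gene body of 745 bp, without flanks, the covered length was 0 in all 3 untreated lists, 266, 697 and 263 bp with RANKL, 0 in all 3 lists with RANKL and I-BET and 0 with I-BET alone. H1f1 was singled out after its values were seen. It is the only member that a count over gene bodies alone calls gained with RANKL, against 1.34% of all genes, and the only one it calls lost with I-BET, against 0.589%. The comparisons share the RANKL lists.

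H4c4 (Hist1h4d, chr13:23581568-23581969) was covered over 0, 0 and 924 bp in untreated cells, 2026, 1396 and 1995 bp with RANKL, 921, 0 and 1151 bp with RANKL and I-BET and 1197 bp with I-BET alone. The 3 RANKL values lay above all values of the other groups. H1f2 (Hist1h1c, chr13:23738807-23739531), a widely expressed somatic H1, was covered over 2364, 1009 and 2448 bp in untreated cells, 2373, 1987 and 2413 bp with RANKL, 2563, 225 and 2404 bp with RANKL and I-BET and 2123 bp with I-BET alone, and its groups overlapped. H4f16 (Hist4h4, chr6:136803993-136804431), alone on chromosome 6, was covered over 1494, 274 and 1797 bp, then 2095, 1033 and 2154 bp, then 2148, 0 and 1714 bp, and 1925 bp with I-BET alone. Its replicates numbered 2 were the lowest of each group.

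**Figure D4:**
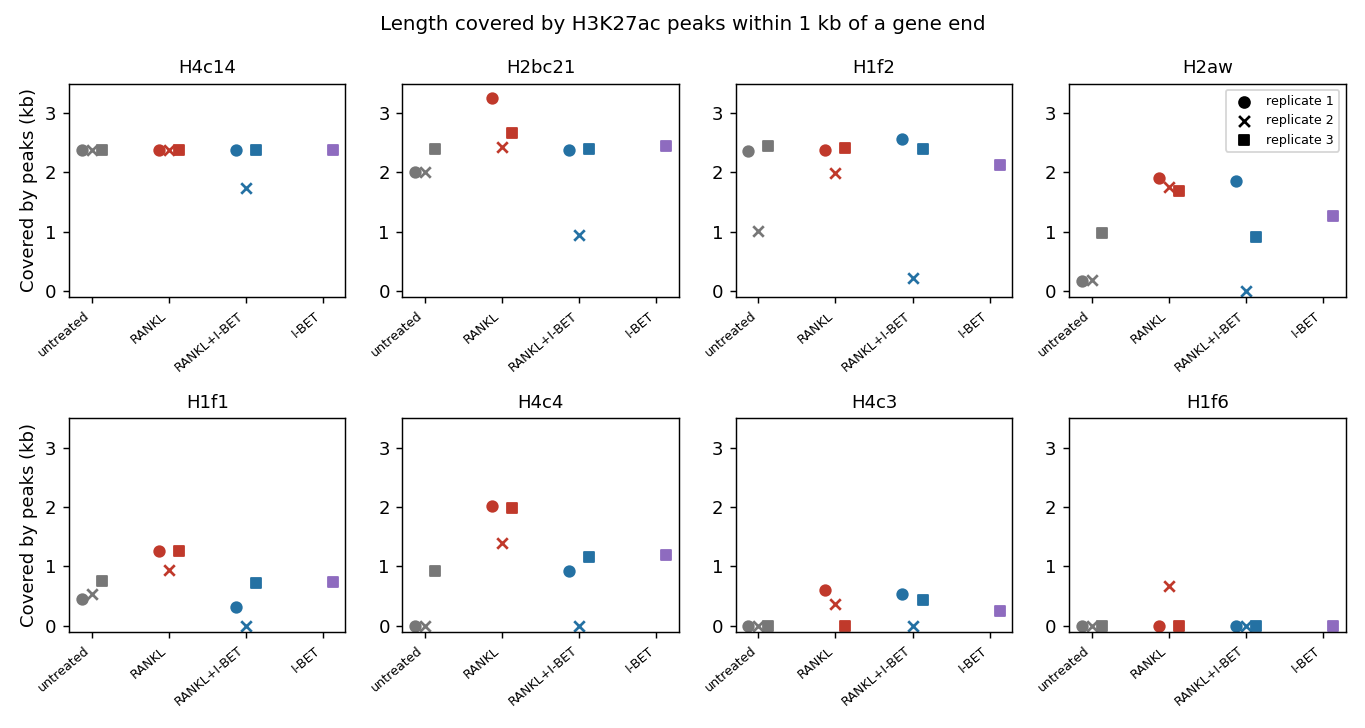
Length covered by H3K27ac peaks within 1 kb of a gene end, in kb, for 8 histone genes by group, with 1 point per list (circle replicate 1, cross replicate 2, square replicate 3). The RANKL points of H2bc21, H2aw, H1f1 and H4c4 lie above all untreated points, H4c14 is near its full window in 9 lists, and H1f6 has a value above 0 only in RANKL replicate 2.

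H2bc4 (Hist1h2bc) and H2ac6 (Hist1h2ac), a pair of H2B and H2A genes of the third chromosome 13 cluster, had 1324, 436 and 2001 bp and 1324, 436 and 1875 bp in untreated cells. With RANKL they had 1999, 1299 and 1909 bp and 1759, 1299 and 1669 bp. With RANKL and I-BET they had 2001, 0 and 2001 bp and 1766, 0 and 1915 bp, and with I-BET alone 2001 and 2107 bp. The values of both genes overlapped between the 3 replicated groups, and the single I-BET value of H2ac6 was the highest of its 10.

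The test fitted across genes called no gene in this comparison. The 9 lists of the 3 groups were reduced to their peaks of highest -log10 p until each covered 3.44 Mb, and limma was fitted to log2(covered bp + 200) over the 2857 genes with a mean of at least 200 bp. That filter let 26 of the 67 members through. limma with Benjamini-Hochberg adjustment called 0 of 2857 genes (0%) and 0 of the 26 members, with 50 genes and 1 member at an unadjusted p under 0.05. Of the 26 members 11 had a positive and 15 a negative log2 difference, with a median of -0.76 beside -0.31 over all genes tested. The member at an unadjusted p under 0.05 was H2aw. It had covered length in RANKL replicates 1 and 3 alone and passed the filter only through them, so its log2 difference of 2.21 is a description. The other largest log2 differences were -2.42 for H2ac19, -2.30 for H3c15 and -1.94 for H2bc7, and none of these passed the test. H2bc7 had covered length in untreated replicates 1 and 2 alone and passed the filter only through them, so its value is likewise a description. A count of 0 does not show that no gene differed, since on simulated data this test missed most planted differences as small as those of the members.

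The sign for the members as a group depended on how the lists were made comparable. With the lists as deposited, 62 of 63 members tested had a positive log2 difference between RANKL and untreated cells, with a median of 0.79 beside 1.15 over all 11472 genes. As deposited and without the lists numbered 2, 57 of 63 were positive, with a median of 0.49 beside 0.48 over 8775 genes. In that fit the log2 difference was 1.60 ± 0.64 (SE) for H2aw, 2.22 ± 0.84 for H4c4, 0.89 ± 0.43 for H1f1 and 0.40 ± 0.12 for H2bc21, each with a limma adjusted p of 0.539. At one covered length H2bc21 turned to -0.39, and H4c4 and H1f1, with covered length in 0 and 1 of those 9 lists, did not pass the filter. limma called 0 genes in both fits. The difference of H2aw was positive in each of 18 alternatives, between 0.52 and 3.47, in part through the filter described, whereas H2ac19, H3c15 and H2bc7 changed sign in 5, 4 and 5 alternatives.

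The comparison of RANKL with I-BET against RANKL alone asks whether BET inhibition lowers the mark at these genes. With all lists, 0 of 67 members were gained and 0 lost, against 0% and 0.553% of all genes. The median member was covered over 2003, 1506 and 2261 bp with RANKL and 1906, 0 and 1945 bp with RANKL and I-BET. Replicate 1 covered less with I-BET at 35 of 65 members (53.8%, against 47.9% of all covered genes) and replicate 3 at 39 of 63 (61.9%, against 68.0%). The median difference was small, -46 bp in replicate 1 and -100 bp in replicate 3.

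Over the lists not numbered 2, 19 of 65 members (29.2%) had less covered length in both lists with I-BET than in either RANKL list, against 21.5% of all genes covered, and 3 (4.62%) had more, against 8.16%. Of the 19, the H1 genes were H1f1, H1f3 and H1f4, and the H2A genes H2ac8, H2ac15, H2ac19, H2ac21 and H2ac22. The H2B genes were H2bc9, H2bc15, H2bc21 and H2bc22, the H3 genes H3c2, H3c4, H3c6 and H3c7, and the H4 genes H4c1, H4c4 and H4c6. H2ac15 with H2bc15 and H2ac22 with H2bc22 are divergent pairs and do not count as separate observations. The 3 with more were H2bc18, H2ac6 and H2bc4. At a -log10 q of at least 5, H2bc14 was lost, 1 of 67 (1.49%), against 1.01% of all genes. Over all 3 lists, 3 of 67 (4.48%) had less in every list with I-BET, against 11.3% of all genes: H2bc21, H4c4 and H1f1. All 3 rest in part on RANKL+I-BET replicate 2, where H4c4 and H1f1 were at 0, and all 3 are also among the 19 found without the lists numbered 2.

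limma with Benjamini-Hochberg adjustment called 0 of 2857 genes (0%) and 0 of 26 members here, with 65 genes and 1 member at an unadjusted p under 0.05. Of the 26 members 6 had a positive and 13 a negative log2 difference, the rest 0, with a median of -0.17 beside 0.48 over all genes. The largest were 2.32 for H4c14, -2.21 for H2aw, -2.08 for H2bc14 and 1.96 for H2ac18. The value of H2aw is again a description, since it rests on the same RANKL lists against 0 elsewhere. H2bc14 had 691 bp in untreated replicate 1, 1516 and 1563 bp in RANKL replicates 1 and 3, and 0 in the other lists fitted. It passed the filter only through the RANKL lists, so its value is likewise a description. As deposited and without the lists numbered 2, the log2 difference was -1.10 ± 0.43 (SE) for H1f1, -0.84 ± 0.84 for H4c4, -0.41 ± 0.64 for H2aw and -0.28 ± 0.12 for H2bc21, each with a limma adjusted p of 1. The difference of H2aw was negative in each of 18 alternatives, between -3.47 and -0.12.

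RANKL with I-BET was also set against untreated cells. No member was gained or lost, against 0.0366% and 0.0137% of all genes. Without the lists numbered 2, H4c3 was gained, 1 of 67 members (1.49%) against 0.731% of all genes, with 542 and 438 bp against 0 and 0. Over the same lists 6 of 65 members (9.23%) had more covered length in both lists with RANKL and I-BET, against 28.4% of all genes: H3c14, H2bc18, H4c18, H3c7, H4c3 and H4c2. The 2 with less (3.08%, against 3.03%) were the divergent pair H2ac15 and H2bc15. limma with Benjamini-Hochberg adjustment called 0 of 2857 genes (0%) and 0 of 26 members, with 58 genes and 0 members at an unadjusted p under 0.05. The largest log2 differences were -1.94 for H2bc7, -1.78 for H2ac7, -1.37 for H2ac21 and -1.23 for H2ac20, and the smallest adjusted p over all genes was 0.993. The divergent pair H2bc7 and H2ac7 had covered length in untreated replicates 1 and 2 alone and passed the filter only through them. Their values are descriptions.

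I-BET alone is 1 list, so its differences have no replicate check. Its members were covered over a median of 2001 bp, as against 2147 bp in untreated replicate 3, 2261 bp in RANKL replicate 3 and 1945 bp in RANKL+I-BET replicate 3. Against untreated replicate 3 it covered less at 32 of 63 members (50.8%, against 57.1% of all covered genes) and more at 17 (26.98%, against 39.6%). Against RANKL replicate 3 it covered less at 39 of 63 (61.9%, against 74.9%) and more at 9 (14.3%, against 21.6%). Against RANKL+I-BET replicate 3 it covered less at 23 of 63 (36.5%, against 58.7%) and more at 25 (39.7%, against 37.7%). The counts of more and less were thus most even against RANKL+I-BET replicate 3. The median differences were -12 bp from untreated replicate 3, -159 bp from RANKL replicate 3 and 0 bp from RANKL+I-BET replicate 3. Even counts do not measure how alike the lists are.

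Genes that act with the members were taken from 3 lists. Of 22 genes of histone transcription and mRNA processing, 13, 13 and 19 had a gene-end peak in the untreated lists, 21, 22 and 21 with RANKL, 21, 9 and 21 with RANKL and I-BET and 20 with I-BET alone. Npat, the histone locus body coactivator, was covered over 0, 237 and 1841 bp in untreated cells, 2001, 1845 and 1722 bp with RANKL, 2001, 0 and 1640 bp with RANKL and I-BET and 2001 bp with I-BET alone. Casp8ap2 (FLASH), which acts in the same body, had 0, 450 and 508 bp, then 1235, 1250 and 1482 bp, then 1025, 0 and 428 bp, and 646 bp. The RANKL values of Casp8ap2 lay above those of all other lists, and those of Npat overlapped with untreated replicate 3. Of all genes covered, 19.9% had more in every RANKL list than in any untreated list. Slbp, which binds the mRNA stem-loop, had 976, 381 and 1392 bp, then 1028, 2636 and 1510 bp, then 1089, 0 and 1029 bp, and 895 bp, with overlapping groups.

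Of 11 replication-independent histone genes, 6, 5 and 7 had a gene-end peak in the untreated lists, 9, 11 and 9 with RANKL, 8, 3 and 7 with RANKL and I-BET and 7 with I-BET alone. H2az1 (H2afz), which encodes the variant H2A.Z, had 884, 167 and 3835 bp, then 2222, 2349 and 2544 bp, then 2326, 0 and 2526 bp, and 2715 bp, and untreated replicate 3 was its highest value. H3f3b, which encodes H3.3, had 0 bp in all untreated lists, 768, 136 and 224 bp with RANKL, 454, 0 and 0 bp with RANKL and I-BET and 0 with I-BET alone. It was gained with RANKL, as were 1.49% of all genes. H1f0, the linker histone H1.0, had 1364, 891 and 1373 bp, then 3086, 4002 and 3156 bp, then 1812, 163 and 1431 bp, and 1316 bp. The 3 RANKL values of H1f0 lay above all other values, and against the untreated lists alone 19.9% of all genes covered did so. Of 6 histone chaperones, 3, 2 and 5 had a peak in untreated cells, 6 in each RANKL list, 6, 0 and 3 with RANKL and I-BET and 6 with I-BET alone. Of these 39 genes limma tested 17, and 0 passed in any comparison. Hfe, the only other protein-coding gene inside a cluster, had a gene-end peak in all 10 lists.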

How the data were processed

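The submitters' processing notes name FastQC, Bowtie2, MACS2 and the build mm10 (GRCm38), whereas versions, settings and the use of inputs are not given in the sources used here. Each deposited list gives a score per peak (10 times the -log10 q, in whole numbers, as the values show), a fold enrichment (a ratio), and p and q values. The deposited p and q values are on a -log10 scale. These are the authors' values and were used for description, ranking and filtering. Ranking and filtering were done within each list. Counts at a -log10 q of at least 5 and the fold of H2aw are set side by side between lists. Depth is unknown.

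The members and gene lists were chosen with earlier results of these data known. Base pairs under peaks around both gene ends (1 kb) were summed in Python 3.11.15 with pandas 2.3.3. Gained meant a peak in 3 of 3 lists of the first group and 0 of 3 of the second. limma 3.58.1 (R 4.3.3, trend, no covariates, 3 groups of 3) was fitted to log2(bp + 200) on lists reduced to 3.44 Mb, with Benjamini-Hochberg adjustment and a threshold of 0.05. The test was checked on simulated data, where it recovered the large planted differences and missed most of the smallest.

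Named genes were those called, gained or lost, the 6 widest of those in every list, the 4 largest differences per comparison and 10 preset members. Others are given as examples after their values were seen. Alternatives were the window, the peak threshold, the pseudocount, the filter, the scaling, the replicate block and each list left out.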

Additional observations from a re-analysis of the deposited data

How the results depend on the processing

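limma called 0 genes in each comparison under each of 18 alternatives, with smallest adjusted p-values of 0.328 for RANKL against untreated, 0.262 for RANKL+I-BET against RANKL and 0.240 for RANKL+I-BET against untreated. With the replicate number as a block the smallest adjusted p-values were 0.819, 0.854 and 0.972, and 0 genes were called. Deviations of same-numbered lists correlated at 0.033 to 0.175, and those of differently numbered lists at -0.117 to 0.025. Every same-numbered value was thus the higher, though small and not always above 0.1. The main fit did not pair the samples by number, and the fit with the block is the one that does. The count gained with RANKL was 1 over gene bodies, 3 with a 5 kb window, 4 at a -log10 q of at least 5, 1 by 2 of 3 lists against 0, and 0 to 2 with 1 list left out. The count lost with RANKL was 2 at one covered length. Without the lists numbered 2 and at one length of 16.1 Mb, an alternative added after seeing the data, 3 were gained and 7 lost with RANKL. In that setting 5 were gained and 1 lost with I-BET against RANKL, and 1 gained and 2 lost against untreated. With I-BET against RANKL 1 was lost over gene bodies (H1f1) and 1 at a -log10 q of at least 5 (H2bc14). Against untreated 1 was gained (H4c3) by 2 of 3 lists against 0, without the lists numbered 2, and in the range 0 to 1 with 1 list left out, the 1 being without RANKL+I-BET replicate 2. The mean number of members with a peak in untreated, RANKL, RANKL+I-BET and I-BET lists was 4.33, 29.3, 8 and 13 at a -log10 q of at least 5 (beside 3.22%, 19.2%, 7.86% and 5.47% of all genes), and 19.3, 7.33, 10.7 and 13 at one covered length (beside 9.01%, 4.98%, 10.3% and 6.67%). It was 47.7 in untreated lists over gene bodies, 52.0 and 59.0 in untreated and RANKL lists around annotated starts, where 5 members have no entry, and 46.5 in RANKL lists at 16.1 Mb. With 1 list left out it ran from 54.5 to 59.5, 62.5 to 65.0 and 42.5 to 64.0. Several log2 differences changed sign. For RANKL against untreated, H2ac19, H3c15 and H2bc7 were at 0.82, 0.49 and 0.44 as deposited, and at 0.57, 0.46 and 0.57 without the lists numbered 2, at one length, as deposited, and as deposited with the replicate block. H2ac19 and H2bc7 were at 0.068 and 0.070 as deposited, median-centred and without those lists. For RANKL+I-BET against RANKL, H4c14 and H2ac18 were at -0.14 and -0.56 as deposited, and H2bc14 at 0.24 and, without the lists numbered 2, 0.014 after median-centring. Against untreated and without the lists numbered 2, H2bc7, H2ac7, H2ac21 and H2ac20 were at 0.57, 0.70, 0.22 and 0.18, with the replicate block too. H2bc7 and H2ac7 were at 0.19 and 0.32 when also median-centred, and H2ac21 and H2ac20 at 0.74 and 0.91 when lists were ranked by fold. The cause of these changes was not tested. With the lists as deposited rather than of one length, the median log2 difference of all genes between RANKL and untreated moved from -0.31 to 1.15.

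A peak is present or absent by a threshold that depends on a library's depth, which the lists do not give, so an absent peak does not show an absent mark. Covered length has a ceiling at the window, which 7 lists reached for H4c14 and H2ac20, and says nothing of the height of the mark. Genes within 1 kb of each other share peaks. At one covered length, lists with wide peaks keep fewer of them, and RANKL replicate 2 kept 0 members.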
